A study of Mus musculus with 10 samples.

Results

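Of the places marked in mouse spermatocytes, 3183 regions carried acetylation of histone H4 at lysine 5 (H4K5ac) and butyrylation at lysine 8 (H4K8bu), and no called H4K5bu or H4K8ac. They were chosen by merging the enriched islands of all 8 lists of the study, on chromosomes 1 to 19, wherever islands shared at least 1 bp, and keeping every merged region that held spermatocyte islands of H4K5ac and H4K8bu alone. Round spermatid islands played no part in the choice beyond the merging. These 3183 regions were 7.02% (95% interval 6.79 to 7.26) of the 45347 regions with any spermatocyte mark, out of 58242 merged regions in all. The intervals of percentages are exact Clopper-Pearson intervals over regions, those of folds exact conditional binomial intervals, and those of medians come from order statistics. They cover counting error or the spread between regions, never the variation between animals or immunoprecipitations, because each mark had 1 library per stage. Groups are therefore compared without a test, and all p- and q-values given are the deposited ones.

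The libraries came from mononucleosomes of fractionated testis cells of the mouse strain Oncins France 1, at the meiotic stage (spermatocytes) and the haploid stage after it (round spermatids). Each immunoprecipitation took about 100 ug of mononucleosomes, and 5 ug of rabbit antibody to 1 of the 4 marks, in a buffer that contained sodium butyrate. For each stage 1 input library was sequenced as well. The acetyl antibodies were a gift and the butyryl antibodies commercial. The sources used here do not give age, animal number, pooling or fraction purity, and the lists hold no expression values by which the labelled stage could be checked. The 8 lists held 27526 to 43505 autosomal islands with 4665744 to 9101516 ChIP reads inside them, and the selected regions held 205698 of the spermatocyte H4K5ac reads and 287077 of the H4K8bu reads.

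Acetyl and butyryl groups sit on the same amino group of a lysine, so on 1 histone tail a given lysine bears one or the other, while K5 and K8 of that tail can differ. Acetylation of the H4 tail is known as a feature of active promoters and enhancers, and in the testis the double bromodomain protein Brdt binds H4 tails acetylated at both K5 and K8. Butyrylation uses butyryl-CoA and is known on many of the lysines that are acetylated. An island list shows where reads were enriched in a population of cells, so H4K5ac and H4K8bu in the same place need not lie on the same tail or in the same cell.

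In the lists as deposited, the pair H4K5ac and H4K8bu was the most frequent incomplete state of spermatocytes. Of the 15 states that the 4 marks can form, only the complete set of 4 marks had more regions, 27155. The pair had 3183 regions, and H4K5ac alone followed with 3058. The set lacking only H4K8ac came next with 2674. All 6 states of 2 marks together had 5564 regions, so the pair made up 57.2% of them. The other pairs ran from 245 regions for H4K8ac with H4K8bu to 934 for H4K5ac with H4K5bu. In spermatocytes H4K5ac and H4K8bu also had the longest lists, 43505 and 40695 autosomal islands against 37578 for H4K5bu and 35370 for H4K8ac. With all lists shortened to the same number of islands by fold, the pair had 1107 regions, or 3.34% of marked regions, and ranked 7 among the 14 incomplete states, with H4K5bu alone the most frequent at 1650. With the upper 50% of every list it had 1314 regions and ranked 3, behind H4K5ac alone with 2029 and 1 other state. Its place thus changed when the lists were cut by fold, and whether list length or fold made the difference was not tested. A mark without an island is uncalled, which is not a measured absence.

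The islands of the pair overlapped, though no more closely than those of H4K5ac and H4K8bu elsewhere. They shared bases in 3172 of the 3183 regions (99.7%), and in the other 11 they met only through islands of other lists. In regions with no spermatid island the merging requires this sharing. Elsewhere only a spermatid island could join islands of the pair that did not touch. The shared part was a median of 100% of the shorter island, as over all regions with both marks, and the shared bases were a median fraction of 0.667 of all bases that either covered, against 0.75 over all regions with both. The H4K8bu islands were longer in 1963 regions, the H4K5ac islands in 882, and in 338 the lengths were equal. Among the 3112 regions with 1 island of each mark, the H4K5ac island lay wholly inside the H4K8bu island in 1567 (50.4%) and the reverse held in 690 (22.2%), with 133 identical pairs counted in both. Their centres were a median of 300 bp apart, and edges fall on a grid of 200 bp. Median island lengths were 2000 bp for H4K5ac and 2400 bp for H4K8bu. Over all regions with the mark in spermatocytes they were 2600 and 3000 bp, in the same order. Matching counts of longer and enclosed islands over all regions with both marks are not given here, so those counts only describe the pair's regions.

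Enrichment over input in spermatocytes was modest. The fold is the ratio of ChIP to input reads in the called islands, scaled by 1 constant per list. That constant was derived from the deposited folds and read counts of the list's autosomal islands. The median fold was 3.53 (3.47 to 3.60) for H4K5ac, with quartiles of 2.78 and 4.76. For H4K8bu it was 2.88 (2.83 to 2.92), with quartiles of 2.32 and 3.76. These values describe the selected regions and test nothing, since the calls that chose them rest on them. In regions with all 4 spermatocyte marks the medians were 6.96 for H4K5ac and 5.20 for H4K8bu. The counts behind the folds were small, a median of 58 ChIP reads over 28 input reads for H4K5ac and 82 over 34 for H4K8bu, and 2160 regions had at least 50 ChIP reads in both lists. The H4K5ac fold exceeded the H4K8bu fold in 2548 of the 3182 regions with both folds (80.1%), with a median log2 ratio of H4K8bu to H4K5ac of -0.28 (-0.29 to -0.26). Both folds of a region share 1 input library. They come from different antibodies and are scaled by different constants, 1.69 for H4K5ac and 1.18 for H4K8bu. Over all regions with both marks the log2 ratio of H4K8bu to H4K5ac had a median of -0.39 (-0.39 to -0.38). The matching share with the higher H4K5ac fold is not given here, so the 80.1% only describes the pair's regions.

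The threshold was a deposited q-value below 0.01 in every list, and the regions at its edge had few reads. Just inside it lay the region on chromosome 2 from 91933401 to 91934400, where H4K5ac reached 1.62 times input (0.886 to 2.96) from 24 ChIP and 25 input reads at q = 0.00976. Those on chromosome 14 from 94332001 to 94335400 and chromosome 10 from 105774601 to 105775800 followed, with weaker marks at q = 0.00907 and 0.00848. Just outside, 3 regions held 1 further mark that barely passed. On chromosome 10 from 18780201 to 18784400 an H4K8ac island had q = 0.00982 and a fold of 1.31 (0.937 to 1.84). On chromosome 8 from 82095201 to 82101600 H4K8ac had q = 0.00966, and on chromosome 2 from 177347001 to 177354400 H4K5bu had q = 0.0088. All 3 outside carried round spermatid islands of at least 3 marks, and so did the first of those inside.

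Most of the regions were marked again in round spermatids. An island of any mark was called in 2207 of the 3183 regions, 69.3% (67.7 to 70.9), against a background of 61.8% over all regions with a spermatocyte mark. All 4 marks were called in 1601, 50.3% (48.5 to 52.1), against 44.2%. Of the marked-again regions alone, 72.5% had all 4, close to the 71.4% of all regions marked in both stages. By mark, H4K5ac was called in 67.1% (65.5 to 68.8; background 56.7%) and H4K8bu in 62.5% (60.8 to 64.2; background 52.9%). The marks missing in spermatocytes were found there too. H4K5bu was called in 1995 regions, 62.7% (61.0 to 64.4; background 57.7%), and H4K8ac in 1627, 51.1% (49.4 to 52.9; background 45.7%). Each of the 2207 regions had a spermatid island that shared bases with a spermatocyte island, which the merging rule itself requires. The share above the background rests on the lists at their deposited length. With all 8 lists shortened to the same number of islands by fold, 1107 regions had the state, and 710 of the 3183 regions (22.3%) overlapped them. A spermatid mark was then called in 43.6%, below the background of 58.4% under that setting, and all 4 marks in 28.2%, against 41.6%. With only the upper 50% of every list kept by fold, the shares were 33.0% against 54.5% for any mark and 15.3% against 31.2% for all 4.

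**Figure D1:**
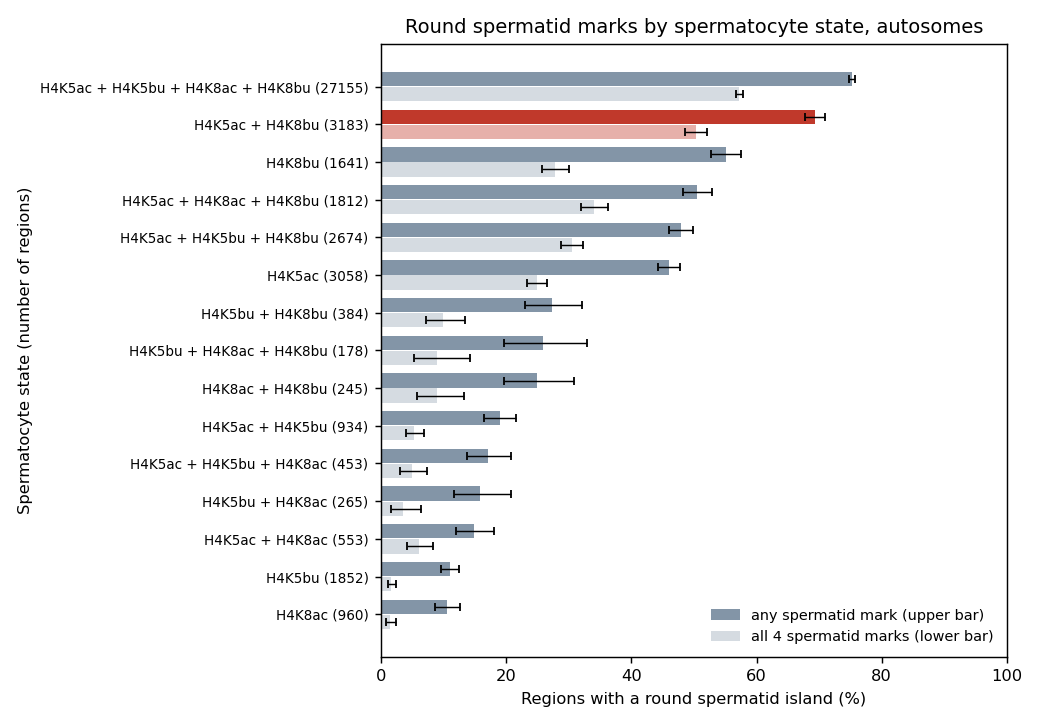
Percent of autosomal regions in each of the 15 spermatocyte states that had an island of any mark (upper bar) or of all 4 marks (lower bar) in round spermatids, with 95% Clopper-Pearson intervals and the number of regions in brackets. The pair H4K5ac and H4K8bu (red) stands at 69.3% and 50.3%, next to the complete set at 75.2% and 57.3%.

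Set against like states, the pair stood closer to the complete set than to other incomplete ones. A spermatid mark was called in 75.2% (74.7 to 75.8) of the regions with all 4 spermatocyte marks. In the set lacking only H4K8ac it was 47.9% (46.0 to 49.8), although that state has 1 mark more than the pair. It was 19.0% (16.5 to 21.6) for H4K5ac with H4K5bu and 14.8% (12.0 to 18.1) for H4K5ac with H4K8ac, the other pairs that hold H4K5ac. Among the incomplete states the closest was H4K8bu alone, at 55.1% (52.7 to 57.6). All 4 spermatid marks were found in 30.5% of regions lacking only H4K8ac, in 5.25% of those with H4K5ac and H4K5bu and in 5.97% of those with H4K5ac and H4K8ac. The pair's place ahead of the other 13 incomplete states did not hold in shortened lists: H4K8bu alone had 47.8% at equal list length, and the set lacking only H4K8ac 42.0% in the upper 50% by fold. These differences compare 1 set of libraries, and regions are not replicates.

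Of the spermatid states, 15 occurred, no mark included, and a few held most regions. After all 4 marks (1601 regions) came no mark, with 976 regions (30.7%, 29.1 to 32.3), against 38.2% of all regions with a spermatocyte mark. The set lacking only H4K8ac held 309 regions (9.71%) and H4K5ac alone 135 (4.24%). The spermatocyte pair itself, H4K5ac with H4K8bu only, was found again in 47 (1.48%). Matching shares of these marked states over all regions with a spermatocyte mark are not given here, so their counts only describe the pair's regions. Of the 2207 regions marked in round spermatids, H4K5ac was among the marks in 96.8%, against 91.7% of the 28041 regions marked in both stages, and 1926 (87.3%) had at least 3 marks, against 83.0%. Only acetyl marks were called in 141 regions (6.39%, against 3.91%) and only butyryl marks in 61 (2.76%, against 7.28%). Without regard to H4K8ac, the shortest list of round spermatids, the other 3 marks were called together in 60.0% (58.3 to 61.7) of the regions, against 50.4% of all regions with a spermatocyte mark.

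Within the 3183 regions, those marked again had longer and less steep spermatocyte islands. Regions with all 4 spermatid marks had a median H4K5ac fold of 3.10 and H4K8bu fold of 2.57 in spermatocytes, over islands of 2200 and 2800 bp. Regions with no spermatid mark had higher folds, 4.56 and 3.73, over shorter islands of 1400 and 1800 bp. Their ChIP reads were fewer, a median of 49 against 65 for H4K5ac and 67 against 94 for H4K8bu. Input reads differed as well, 12.5 per kb of H4K5ac island without a spermatid mark and 16.1 per kb with all 4, and the part of input in the difference of folds was not tested. The 135 regions that had H4K5ac alone in round spermatids resembled the unmarked ones in fold (4.83 and 3.66) and input (11.7 per kb), but not in island length (2000 and 2400 bp).

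Split into 4 bins of about equal size by their summed spermatocyte ChIP reads, the regions had a spermatid mark in 38.7%, 67.5%, 81.7% and 90.7%, from the lowest bin to the highest. By the mean log2 fold of the pair the order was the opposite, 91.6%, 81.3%, 65.2% and 39.4%. Both orders held together: in every bin by reads, the regions below the median fold were marked again more often, from 60.0% against 28.4% in the lowest bin to 98.1% against 79.9% in the highest. By island length the percentages were 37.4, 69.0, 84.2 and 92.7, and by input reads per kb 45.2, 71.2, 80.4 and 82.0. Regions lacking only H4K8ac climbed by length too, from 17.7% to 86.2% at the same cut points. Those with all 4 spermatocyte marks climbed from 23.9% to 95.2%. With the same cut points by input, regions lacking only H4K8ac had 33.1, 48.2, 57.7 and 53.2. Regions with all 4 spermatocyte marks ran the opposite way by input, 82.2, 77.6, 72.2 and 59.4, and the part of input was not tested. With the same cut points by reads, regions with all 4 spermatocyte marks reached 14.4%, 20.6%, 29.9% and 84.0%, and those lacking only H4K8ac 15.7%, 30.1%, 48.4% and 78.5%. In the lists at their deposited length, the pair was above both in each bin by reads. By length it was above both except in the bin of the longest islands, where the complete set had 95.2% and the pair 92.7%. By fold it was above both in the lower 2 bins, but in the highest bin it was far below the complete set, 39.4% (36.0 to 42.9) against 77.6% (77.0 to 78.1). Regions lacking only H4K8ac also fell with fold, from 69.5% through 65.3% and 48.8% to 28.1%.

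**Figure D2:**
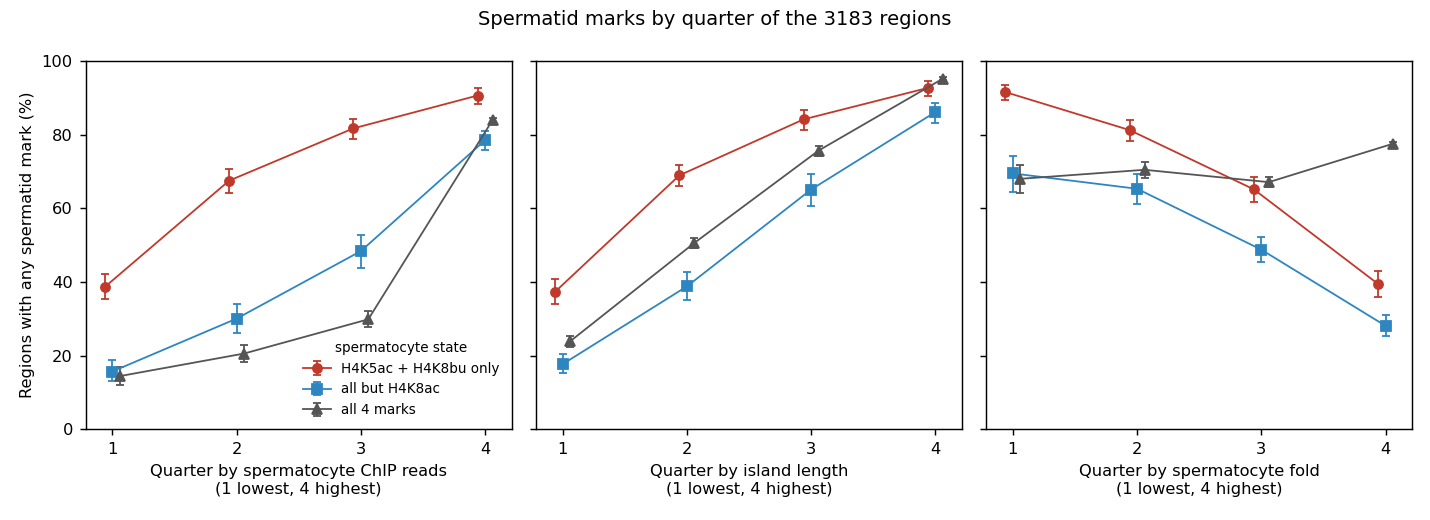
Percent of regions with any round spermatid mark, by bin of the 3183 regions for spermatocyte ChIP reads, the longer spermatocyte island and the mean log2 fold, with 95% Clopper-Pearson intervals; the same cut points are applied to 2 other states. The pair (red circles) goes from 38.7% to 90.7% by reads and from 91.6% down to 39.4% by fold.

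Round spermatid folds, which the rule did not use, were below those of regions that were complete from the start. In the 1601 regions with all 4 spermatid marks the K5 marks had median folds of 4.37 (4.31 to 4.45; H4K5ac) and 3.27 (3.21 to 3.33; H4K5bu). The K8 marks had 2.66 (2.62 to 2.70; H4K8ac) and 3.33 (3.28 to 3.38; H4K8bu). Regions with all 4 marks in both stages had 6.26, 4.70, 3.45 and 4.26 in the same order. Regions unmarked in spermatocytes that gained all 4 had 3.69, 2.95, 2.45 and 2.94. Spermatid folds of the pair's regions thus lay between these groups for each mark. Input in the H4K5ac islands was 18.25 reads per kb in the pair's regions, 16.6 in those complete in both stages and 18.6 in those unmarked before.

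**Figure D3:**
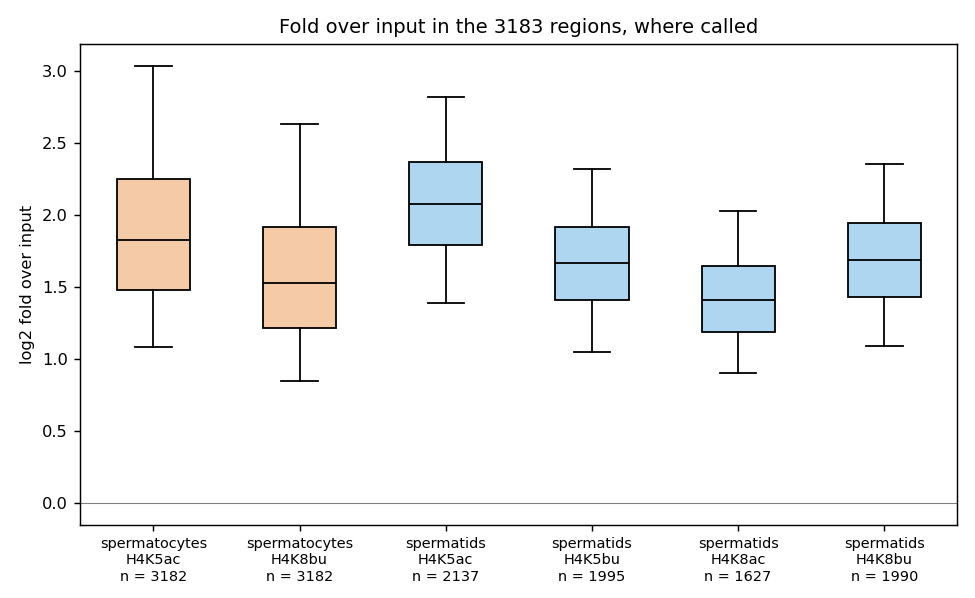
Log2 fold over input in the 3183 regions for each library in which an island was called, with boxes for the quartiles, a line for the median and whiskers at the 5th and 95th percentiles over regions. The median fold is 3.53 and 2.88 for the spermatocyte marks and between 2.66 (H4K8ac) and 4.20 (H4K5ac) for those of round spermatids.

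The balance of butyryl to acetyl in round spermatids was close to that of other complete regions. At K5 the median log2 ratio of H4K5bu to H4K5ac fold was -0.45 (-0.46 to -0.43) in the 1601 regions and -0.42 (-0.42 to -0.41) in all complete spermatid regions that had a spermatocyte mark. At K8 the ratio of H4K8bu to H4K8ac was 0.33 in both (0.31 to 0.34 and 0.32 to 0.33). Across the residues, the log2 ratio of H4K8bu to H4K5ac was -0.43 (-0.44 to -0.41), against -0.51 (-0.52 to -0.51).

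Where the pair's marks were called in both stages, their folds were higher in round spermatids, while over all regions they were lower. For H4K5ac the median fold in 2137 regions was 3.18 (3.12 to 3.23) at the earlier stage and 4.20 (4.15 to 4.27) at the later one, a median log2 ratio of 0.41 (0.38 to 0.43). Over all 24559 regions with H4K5ac in both stages it was -0.25 (-0.26 to -0.23). For H4K8bu the folds in 1990 regions were 2.59 (2.54 to 2.63) and 3.22 (3.16 to 3.27), a median log2 ratio of 0.31 (0.29 to 0.35), against -0.28 (-0.29 to -0.26) over all 22438. The ratio contains the spermatocyte fold that the choice of regions rests on, and other incomplete states had ratios of the same sign, 0.30 for H4K5ac and 0.23 for H4K8bu where only H4K8ac was lacking, so nothing is read from it. With the upper 50% by fold kept, the ratio was 0.016 for H4K5ac and turned to -0.036 for H4K8bu, and with equal list lengths it was 0.13 and 0.083.

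By a fixed size of at least 1.5 times, the H4K5ac fold was higher in round spermatids in 776 of 2137 regions, 36.3% (34.3 to 38.4), where the background was 17.5%. It was lower in 149, 6.97% (5.93 to 8.14; background 35.2%). For H4K8bu, 567 of 1990 were higher, 28.5% (26.5 to 30.5; background 11.8%), and 96 lower, 4.82% (3.92 to 5.86; background 35.6%). The rule used the spermatocyte part of this contrast, so these counts describe the selection.

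The islands were also wider in round spermatids. The median length per region went from 2200 to 3800 bp for H4K5ac and from 2600 to 4200 bp for H4K8bu. Of the 2137 regions, 1925 (90.1%) had longer H4K5ac islands in round spermatids, with a median ratio of 1.69, and over all regions with the mark in both stages 73.2% did, with a ratio of 1.27. For H4K8bu, 84.5% were longer, with a ratio of 1.5, against 69.8% and 1.2. The spermatocyte island lay wholly within spermatid islands of the same mark in 80.7% of regions for H4K5ac and 71.4% for H4K8bu. Matching shares over all regions with the mark in both stages are not given here, so these only describe the pair's regions. ChIP reads per kb of island went from a median of 29.7 to 35.8 for H4K5ac and from 35.0 to 38.4 for H4K8bu, and input reads per kb from 15.7 to 18.0 and from 16.1 to 18.2. Other incomplete states widened as well. Where only H4K8ac was lacking, the median length went from 2800 to 4200 bp for H4K5ac and from 3200 to 4800 bp for H4K8bu. For H4K5ac it went from 2200 to 3400 bp beside H4K5bu alone and from 1800 to 3200 bp beside H4K8ac alone. The length ratios contain the spermatocyte islands that the choice of regions rests on, so nothing is read from them.

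**Figure D4:**
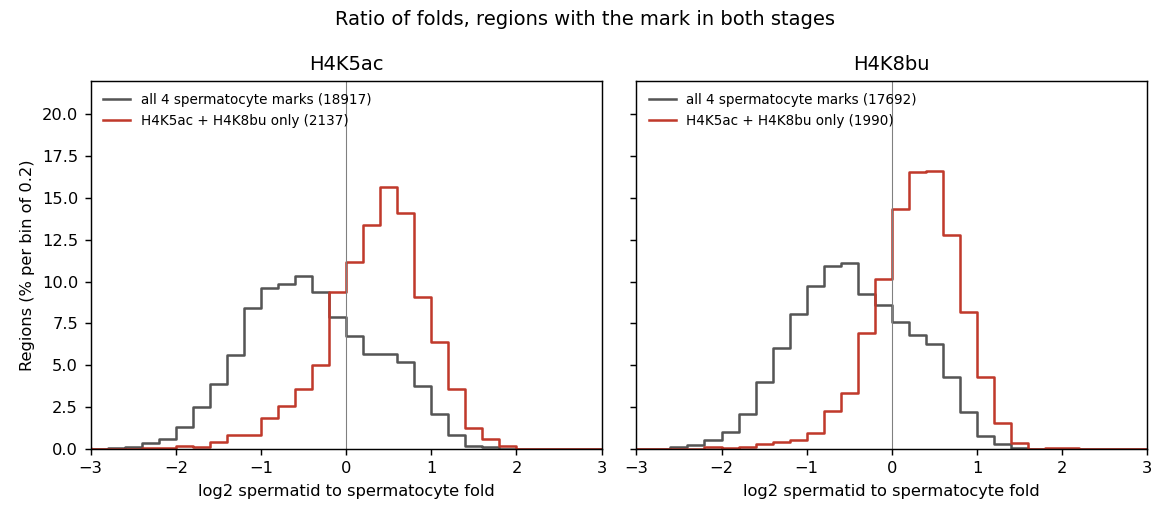
Distribution of the log2 ratio of round spermatid to spermatocyte fold for H4K5ac and H4K8bu, in regions with the mark in both stages, as the percent of regions per bin of 0.2. The pair's regions (red) centre at 0.41 and 0.31, those with all 4 spermatocyte marks (grey) at -0.45 and -0.47.

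Single regions show the range of these states. No gene names are attached, because the gene table at hand is for another genome build than the mm9 coordinates of the lists. The region with the most spermatocyte reads lay on chromosome 17 from 28640401 to 28652800. Its H4K5ac fold was 5.04 (3.90 to 6.58) from 239 ChIP over 80 input reads in 3 separate islands, and its H4K8bu fold 3.22 (2.67 to 3.90) from 419 over 154 in a single island of 11800 bp. In round spermatids it had all 4 marks, with H4K5ac at 5.23 (4.41 to 6.21), H4K5bu at 3.42 (2.80 to 4.18), H4K8ac at 2.92 (2.39 to 3.59) and H4K8bu at 3.72 (3.16 to 4.39). Its H4K5ac and H4K8bu folds differed between stages by less than their counting intervals.

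The remaining 4 of the 5 regions with the most reads also had all 4 spermatid marks. The one on chromosome 6 from 47065201 to 47075800 had H4K5ac at 6.23 (4.50 to 8.75) before and 10.8 (8.65 to 13.5) after. Its H4K8bu fold was 3.72 (2.93 to 4.76) and 6.48 (5.15 to 8.21), and the spermatid folds of H4K5bu and H4K8ac were 7.06 (5.62 to 8.95) and 3.91 (3.12 to 4.93). On chromosome 4 from 83094601 to 83107000, the H4K8bu fold was 2.43 (2.01 to 2.95) and then 4.34 (3.62 to 5.24), intervals that do not overlap, and the H4K5ac fold 3.82 (2.83 to 5.19) and 5.87 (4.88 to 7.08). On chromosome 10 from 68362601 to 68375600 and chromosome 11 from 115297201 to 115308600, the intervals of the stages overlapped for both marks, with H4K5ac folds of 4.02 and 4.92 on chromosome 10 and 4.47 and 5.39 on chromosome 11.

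The largest spermatid to spermatocyte ratio of H4K5ac was 3.86, on chromosome 3 from 49130801 to 49133400. The fold was 3.84 (2.52 to 5.97) from 75 over 33 reads and then 14.8 (8.73 to 26.8) from 112 over 16. All 4 spermatid marks were strong there, with H4K5bu at 10.4 (6.14 to 18.8), H4K8ac at 5.89 (3.17 to 11.8) and H4K8bu at 8.79 (5.14 to 16.02), after an H4K8bu fold of 3.80 (2.24 to 6.74). This region also had the highest mean spermatid fold of all that had 4 spermatid marks. The next for H4K5ac, on chromosome 14 from 74776201 to 74781200, went from 2.19 (1.47 to 3.28) to 8.11 (5.88 to 11.4), with H4K8bu from 2.27 (1.60 to 3.27) to 5.07 (3.86 to 6.72). These regions are extremes, and their intervals are not adjusted for the choice.

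For H4K8bu the largest ratio was 4.04, on chromosome 6 from 17305401 to 17309400, from a fold of 1.62 (1.05 to 2.53) to 6.54 (4.20 to 10.6). The next, on chromosome 12 from 16378201 to 16380000, went from 3.08 (1.91 to 5.10) to 11.2 (6.90 to 19.1), beside an H4K5ac fold of 5.16 (2.98 to 9.34) and then 13.4 (8.20 to 23.0). It came next in mean spermatid fold too, followed by the region on chromosome 12 from 84673601 to 84680400, with an H4K5ac fold of 4.19 (3.03 to 5.86) before and 13.5 (10.0 to 18.6) after. Both regions on chromosome 12 had H4K5bu folds in round spermatids above their H4K8ac folds, 8.30 (5.07 to 14.3) and 7.46 (5.46 to 10.4).

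**Figure D5:**
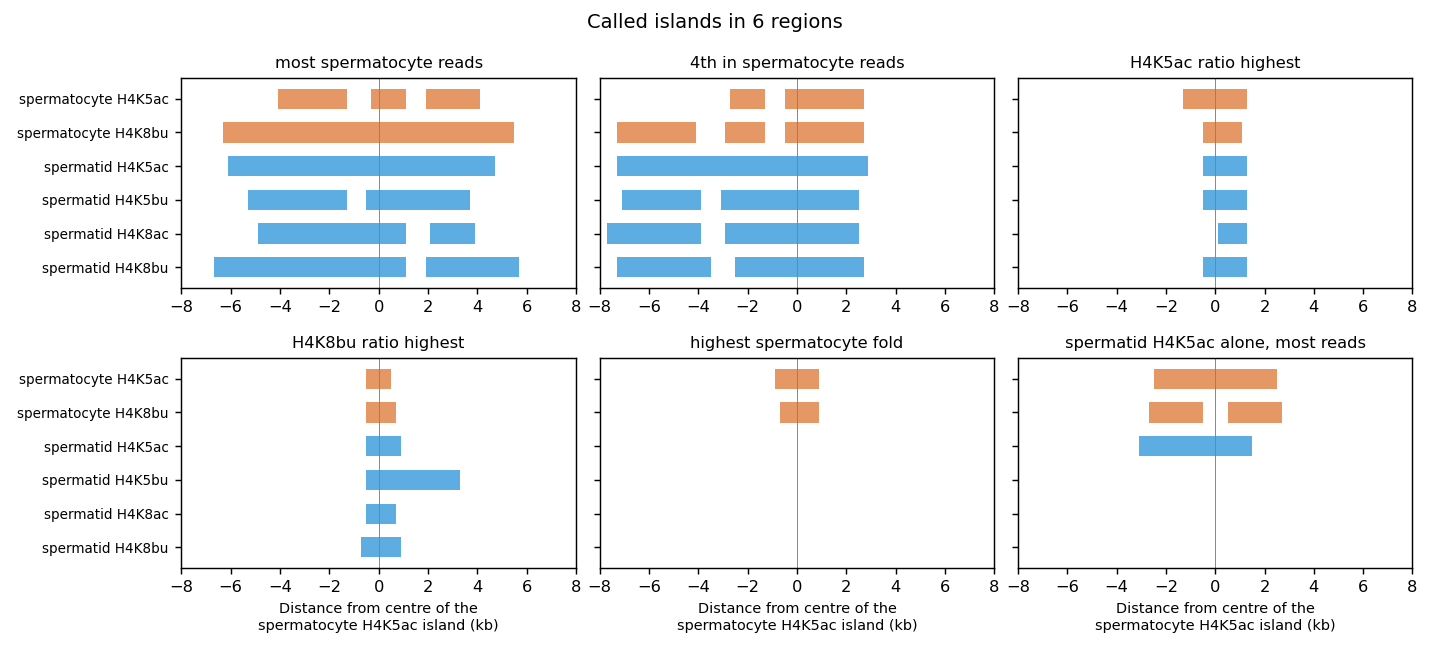
Called islands of each library (orange for spermatocytes, blue for round spermatids) in 6 regions, against the distance in kb from the centre of the spermatocyte H4K5ac islands. In the first 4 the spermatid islands of all 4 marks lie over the spermatocyte pair, the fifth has no spermatid island, and the last has H4K5ac alone.

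Other regions had lower folds in round spermatids, over islands that differed in extent between the stages. The lowest H4K5ac ratio was 0.121, on chromosome 3 from 104795201 to 104797000, where the fold was 20.3 (8.22 to 64.7) from 60 ChIP over 5 input reads in spermatocytes. In round spermatids it was 2.45 (1.61 to 3.76) from 51 over 44, with no other mark called. The region on chromosome 17 from 28277601 to 28283600 had H4K5ac at 10.5 (6.35 to 18.4) and then 2.82 (1.93 to 4.14), again with no other spermatid mark. The lowest H4K8bu ratio was 0.234, on chromosome 3 from 87824001 to 87829000, from 12.4 (6.50 to 26.7) to 2.91 (2.06 to 4.15). That region had H4K5ac folds of 16.7 (8.06 to 40.0) and 5.37 (3.67 to 7.995), and gained H4K5bu at 3.29 (2.44 to 4.50). The next for H4K8bu, on chromosome 12 from 106791401 to 106794800, had 11.4 (4.95 to 32.5) and 2.83 (1.97 to 4.11), and is the single region with H4K8ac and H4K8bu alone in round spermatids. All 4 rested on at most 18 input reads in spermatocytes for the mark concerned. In the order given, its islands covered 1000, 3600, 3000 and 800 bp in spermatocytes and 1800, 3800, 4000 and 2800 bp in round spermatids. The ratios thus compare unequal stretches, and whether the mark fell within the same bases was not tested. These 4 regions are extremes as well, with intervals not adjusted for the choice.

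The steepest regions of spermatocytes were mostly unmarked later. Among the 5 with the highest mean fold, 3 had no spermatid island. On chromosome 5 from 133017201 to 133019000 the folds were 24.3 (9.95 to 77.1) for H4K5ac and 16.9 (6.24 to 64.0) for H4K8bu, from 5 and 4 input reads. On chromosome 4 from 114597001 to 114599400 they were 15.0 (6.84 to 38.7) and 15.4 (6.27 to 49.0). On chromosome 11 from 68197201 to 68199400 they were 28.7 (10.7 to 108.4) and 7.65 (4.24 to 15.0). The fifth, on chromosome 14 from 26745001 to 26748800, had 19.6 (7.93 to 62.6) and 9.47 (4.89 to 20.5), and in round spermatids H4K5ac at 7.45 (4.81 to 11.9) and H4K5bu at 6.93 (3.46 to 15.4). The wide intervals reflect the few input reads.

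The extremes of balance within the pair lay several-fold apart, while the quartiles of the log2 ratio were -0.51 and -0.06. The regions named here are picked extremes, and their intervals are not adjusted for the choice. The highest ratio of H4K8bu to H4K5ac, 1.24 on the log2 scale, was on chromosome 12 from 88144601 to 88151200, with an H4K8bu fold of 6.81 (3.98 to 12.4) and an H4K5ac fold of 2.87 (1.98 to 4.21). It had all 4 marks in round spermatids at folds of 3.50 to 4.00. The next were on chromosome 2 from 28378601 to 28390400 (1.07) and chromosome 11 from 116577801 to 116582200 (1.06), the latter unmarked in round spermatids. In each of these 3 the H4K5ac islands were longer than those of H4K8bu, 3600 against 2200 bp, 8200 against 2400 bp and 4400 against 1400 bp, so the folds cover unequal stretches. The lowest ratio, -2.54, was on chromosome 15 from 76287001 to 76290600, with 24.3 (9.95 to 77.1) for H4K5ac and 4.19 (2.69 to 6.75) for H4K8bu. It had no spermatid mark. Its islands covered 1800 bp for H4K5ac and 3600 bp for H4K8bu, with 5 and 26 input reads. On chromosome 11 from 61496601 to 61500400 the ratio was -1.80, and H4K5ac alone was called in round spermatids, at 9.59 (5.43 to 18.1) after 12.3 (6.88 to 24.0). Its spermatocyte islands were 1800 bp for H4K5ac and 3800 bp for H4K8bu, so the folds of both these regions cover unequal stretches too.

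The other frequent spermatid states are shown by their regions with the most spermatocyte reads. Among those that lacked only H4K8ac, the region on chromosome 10 from 79432401 to 79441000 had an H4K8bu fold of 10.2 (5.82 to 19.1) and, in round spermatids, of 2.74 (1.94 to 3.91), beside H4K5ac at 6.57 (4.85 to 9.03) and 4.18 (3.32 to 5.28). The one on chromosome 17 from 27237401 to 27247000 had H4K5ac at 4.58 (3.41 to 6.22) and 5.18 (4.13 to 6.54). Among those with H4K5ac alone, chromosome 19 from 25577401 to 25583200 had an H4K5ac fold of 3.61 (2.71 to 4.85) and 3.27 (2.37 to 4.56), and chromosome 3 from 104234601 to 104240000 had 3.60 (2.57 to 5.11) and 4.02 (2.81 to 5.80). Their H4K8bu folds in spermatocytes were 2.98 and 3.21, with no H4K8bu island later. Among the unmarked, the region on chromosome 18 from 57829201 to 57837800 had 230 ChIP over 326 input reads for H4K5ac, 1.19 times after scaling (1.00 to 1.41). The one on chromosome 5 from 32434201 to 32441400 had 4.78 (3.62 to 6.37) for H4K5ac and 7.27 (4.61 to 12.0) for H4K8bu over 7200 and 3800 bp.

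By chromosome the pair made up a similar part of the regions with a spermatocyte mark. Its share ran from 5.51% (4.48 to 6.69) on chromosome 16 to 8.27% (7.16 to 9.50) on chromosome 14, which held 182 of its regions. Chromosome 14 also had the highest part marked again in round spermatids, 81.9% (75.5 to 87.2), where all its regions with a spermatocyte mark reached 64.0%. Chromosome 19 had the lowest, 54.0% (43.0 to 64.8) of 87 regions, below its own 59.4% for all marked regions. Chromosome 8 was below its own value too, 61.3% (53.9 to 68.3) against 62.1%. On the other 17 autosomes the pair was above it, by as little as 64.6% against 64.4% on chromosome 11. All these shares rest on the lists at their deposited length.

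Distances to complete regions lay within the range of other incomplete states. The nearest region with all 4 spermatocyte marks was at a median distance of 24000 bp (22800 to 25400), with quartiles of 8600 and 60000 bp. For regions lacking only H4K8ac it was 18000 bp (17000 to 19200), for H4K5ac with H4K5bu 16800 bp (15000 to 18800) and for H4K5ac with H4K8ac 27800 bp (23800 to 32400). H4K5ac alone had 23100 bp (21400 to 24600), and the pair's own value was 42800 bp with the upper 50% of every list. Among the pair's regions, those marked again in round spermatids were farther from a complete region, 26000 bp (24800 to 28200), than those with no spermatid mark, 18800 bp (16800 to 21800). A spermatid island that joins such a region to a nearby complete one takes it out of the pair. This cannot happen to regions with no spermatid mark. The merging can thus set part of this contrast, and nothing is read from it.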

How the data were processed

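Processed data were 8 lists of islands, 1 per immunoprecipitated library, each called by the authors against the input of its stage. The submitters' processing notes, per the labels, name SICER, Bowtie2 2.2.5, CASAVA 1.8.2, deepTools 1.5.11 and build mm9. SICER's version and settings, and how duplicate or multiply mapped reads were treated, are not given in the sources used here. Each deposited island has a read count for ChIP and for input, a p-value, the fold (a ratio of ChIP to input scaled by 1 constant per list) and a q-value. Positions are mm9, counted from 1. With Python 3.11.15, pandas 2.3.3, numpy 2.4.6, scipy 1.17.1 and matplotlib 3.10.9, the autosomal islands were merged, and ChIP and input reads of a mark's islands were summed per region. The functions were tested on simulated lists of known states.

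The regions, states and alternatives were chosen with earlier results of these data known. Regions are named by rank: most ChIP reads, highest mean fold, extreme H4K8bu to H4K5ac ratio, extreme stage ratio, highest spermatid fold, most reads per frequent spermatid state, and q nearest the threshold, with at least 50 ChIP reads required for spermatocyte folds and ratios. Alternatives covered q, fold and list-length limits, merging, overlap, input density and read minimums. Without molecular identifiers, reads may repeat a molecule, so intervals cover counting error only. Genes, promoters and sequences are not analysed here, since the reference tables are for another build.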

Additional observations from a re-analysis of the deposited data

How the results depend on the processing

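Of 91 values recomputed under alternatives, 65 stayed within the interval of the reported value (for the count, within 1.5 times), 25 moved out of it and 1 changed sign. Filters on q (at most 0.001), on input density, on shared bases and on the covered part of a region moved none. For bases shared with a spermatid island, the share with any spermatid mark was fixed by the merging. Merging the spermatocyte lists alone gave 71.3% with any spermatid mark. It also gave 100% with shared bases, which that merging fixes in advance. At least 50 ChIP reads gave an H4K5ac fold of 3.38 and a stage ratio (log2) of 0.44. Disregarding H4K8ac of round spermatids, chosen after the data were seen, gave 60.0% in place of 50.3% with the full set. Shortening the lists moved most values, and the cause was not tested. Of the regions, 334 of the 3183 overlapped regions of the upper 50% by fold, and 710 those of equal lists. In the upper 50% and in equal lists respectively, the number of regions was 1314 and 1107, or 5.28% and 3.34% of marked regions. Any spermatid mark was found in 33.0% and 43.6%, and all 4 in 15.3% and 28.2%. The H4K5ac fold was 6.61 and 5.55, the H4K8bu fold 5.17 and 4.38, and their log2 ratio -0.35 and -0.37. The stage ratio of H4K5ac was 0.016 and 0.13, and that of H4K8bu -0.036 and 0.083. The nearest complete region lay at 42800 and 28000 bp. Shared bases were found in 99.8% of the upper 50%. No paired analysis was possible because each group had 1 library. With a median of 58 and 82 ChIP reads per region, a fold of 1 region is known only within its wide interval, and H4K5bu or H4K8ac below the calling threshold was not detectable.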

Other observations

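On the X chromosome, which the choice of regions left out, 83 of 747 regions with a spermatocyte mark had H4K5ac and H4K8bu alone, 11.1% (8.95 to 13.6). Their median folds in spermatocytes were 5.85 for H4K5ac and 5.21 for H4K8bu. A spermatid mark was called in 55 of them, 66.3% (55.1 to 76.3), while 60.6% of all X regions with a spermatocyte mark had one. All 4 marks were called in 26. The matching share over all X regions is not given here, so nothing is read from that count.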
